A study of Homo sapiens with 12 samples.

Results

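The comparison described here is that of eIF2A siRNA with control siRNA in the first of a pair of sets of HEK293T libraries. HEK293T is an immortalised line derived from human embryonic kidney. The members were chosen by sample title: the 4 HEK293T libraries titled set 1, of 12 libraries in the whole series. The study measured ribosome footprints, the stretches of mRNA that a ribosome covers and so protects from digestion, on mRNAs held by 1 of the cell's cap-binding proteins. Every set 1 library came from cells given sodium arsenite, a thiol-binding poison that causes oxidative stress and slows protein synthesis. 2 libraries carry the control siRNA label and 2 the eIF2A siRNA label, and within each siRNA 1 is labelled as immunoprecipitated (IP) for CBP80 and 1 for eIF4E. Set 2 holds 4 more HEK293T libraries of the same design, and no library belongs to both sets. The sources used here give neither the siRNA sequences nor the arsenite dose, nor whether the sets are separate cultures, and all libraries come from 1 cell line.

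eIF2A is a single protein that can bring initiator tRNA to the small ribosomal subunit, and it is distinct from eIF2, the complex that does so in ordinary initiation. Under arsenite the alpha subunit of eIF2 is phosphorylated, which lowers initiation on most mRNAs and favours a few stress mRNAs such as that of ATF4. CBP80 (gene NCBP1) belongs to the nuclear cap-binding complex that holds newly made mRNAs, and eIF4E holds the cap in the cytoplasm. A footprint count follows both how much of an mRNA was present and how many ribosomes were on it, and these cannot be told apart here because no mRNA level was used.

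The CBP80- and eIF4E-labelled libraries of a siRNA could hardly be told apart. Across genes that reached 20 reads in both runs together, their counts gave a chi-square per degree of freedom of 1.01 in control and 1.02 with the eIF2A siRNA label, where 1 is sampling noise. A control library set against an eIF2A siRNA library gave 9.24 to 9.44. The 2 libraries of a label are called runs below and were summed, which leaves 1 distinguishable library per siRNA. No test of the siRNA is therefore possible within the set, no p-value is given, and none of the differences below has a replicate check. Ratios of eIF2A siRNA over control are given with exact 95% binomial intervals. These cover counting error only, since each label has 1 distinguishable library. They take each read as separate, since the fragments carried no molecular identifiers. The summed libraries held 11375636 coding reads in control and 9813501 with the eIF2A siRNA label, and levels are in CPM, counts per 1000000 reads of a library scaled by TMM, a method that assumes most genes do not differ. HEK293T genes were read under both labels: VIM, an intermediate filament protein, held 336 CPM in control and 428 CPM with the eIF2A siRNA label, and CDH2, N-cadherin, 118 CPM in control and 100.3 CPM with the eIF2A siRNA label. PAX2, a kidney developmental factor, was near the detection limit at 1.2 CPM in control and 1.46 CPM with the eIF2A siRNA label. The 5 markers of pluripotent stem cells were at 0 in all 4 runs. Of fibroblast markers COL1A2 was at 0, while COL1A1 held 13.5 CPM in control and 15.3 CPM with the eIF2A siRNA label and TAGLN 1.38 CPM in control and 4.56 CPM with the eIF2A siRNA label. LUM went the other way, with 3.69 CPM in control and 3.11 CPM with the eIF2A siRNA label, and THY1 was at or near 0. The 5 fibroblast markers summed to 17.6 and 17.7 CPM in the control runs and 24.7 and 23.8 CPM in the eIF2A siRNA runs, per total coding reads. The 4 blood markers summed to at most 1.58 CPM in a run. The part of these markers in other ratios was not tested. Of reads placed once, 39.98% lay outside annotated coding sequences in control and 51.1% with the eIF2A siRNA label. The corresponding shares in set 2 were 35.2 and 42.3%. The part of this share in the gene ratios was not tested.

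EIF2A, the gene the siRNA label names, was not lower in the library labelled eIF2A siRNA. It held 86.8 and 88 CPM in the control runs and 89.3 and 93.7 CPM in the eIF2A siRNA runs, so both labelled runs lay above both control runs by a few CPM. The ratio was 1.05 (0.955 to 1.15), and it was 1.15 when libraries were scaled by total coding reads instead. In set 2 the same gene held 82.6 and 87.6 CPM in the control runs and 44.6 and 47.2 CPM in the eIF2A siRNA runs, a ratio of 0.541 (0.483 to 0.605). All directions below are therefore those of the library labelled eIF2A siRNA, in which lower EIF2A footprints were not seen. The cap-binding partners that define the IP labels differed little: NCBP1 held 127 CPM in control and 131 CPM with the eIF2A siRNA label (log2 ratio 0.04), its small partner NCBP2 had a log2 ratio of -0.18, and EIF4E one of 0.09. SRC, a tyrosine kinase, held 10.4 CPM in control and 10.5 CPM with the eIF2A siRNA label (log2 ratio 0.01). TUSC3, an oligosaccharyltransferase subunit, was unusual in that runs of 1 label differed. It held 22.5 and 40.6 CPM in the control runs and 28.9 and 55.97 CPM in the eIF2A siRNA runs, so each eIF4E-labelled run stood above the CBP80-labelled run of the same siRNA.

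Most genes differed little between the 2 siRNA labels. Of 8675 genes with at least 200 reads over the 4 runs, the 5th and 95th percentiles of the log2 ratio were -0.54 and 0.53, and the median was -0.04. A gene is called past the fold where its ratio was at least 1.5 or at most 0.667. By this rule 287 genes (3.31%) stood higher under the eIF2A siRNA label and 332 (3.83%) stood lower, 619 (7.14%) in all. The split depends on the scaling, since with total coding reads all log2 ratios are 0.14 higher and the counts become 689 higher and 112 lower. The order of genes and the distance of a gene or list from the median of all genes do not depend on it. With total coding reads each list median given below is likewise 0.14 higher, so medians between -0.14 and 0 change sign. Of the genes past the fold, 175 higher and 188 lower ones passed it in the CBP80-labelled pair and in the eIF4E-labelled pair alike. 20 genes stood at least 2-fold higher and 12 at least 2-fold lower. The ratio also moved with a gene's level. Genes under 20 CPM had a median log2 ratio of 0.06, those of 100 to 200 CPM -0.12 and those of 500 CPM or more -0.25. In set 2 the same genes had medians of 0.00, 0.00 and -0.06. The shares past the fold in set 1 moved with level too. Under 20 CPM 6.67% of genes stood higher and 4.05% lower, and at 500 CPM or more 0% stood higher and 5.35% lower. A count of 0 higher in a list of abundant genes is therefore near the share of all genes at that level. Beside the list medians below, the median relative to genes of the same level is therefore given for several lists of abundant genes.

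**Figure D1:**
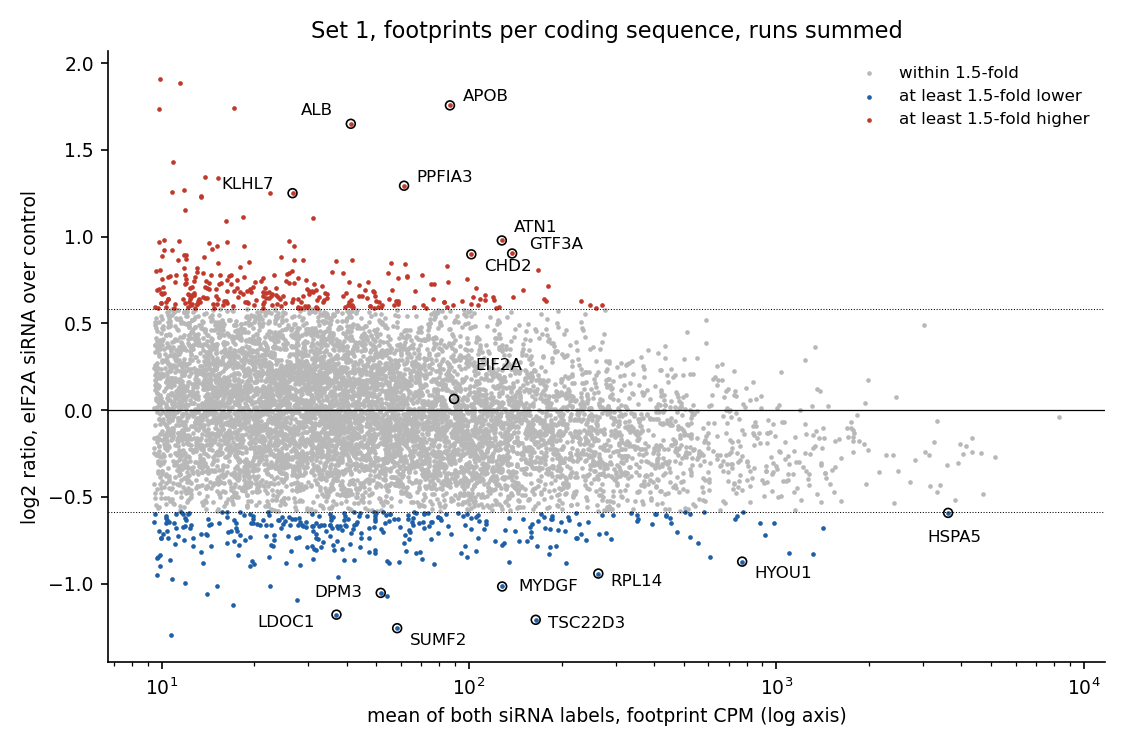
Log2 ratio of eIF2A siRNA over control in set 1 (vertical axis) against the mean level in CPM (horizontal axis, log scale), 1 point per gene with at least 200 reads over the 4 runs. Blue points are the 332 genes at least 1.5-fold lower and red points the 287 at least 1.5-fold higher, and the cloud drops slightly below 0 toward the right, where levels are high.

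The lowest ratios among genes of at least 20 CPM included several proteins of the endoplasmic reticulum (ER). SUMF2, an ER-resident relative of the sulfatase-modifying factor, held 85.2 and 79.5 CPM in the control runs and 37.03 and 31.7 CPM in the eIF2A siRNA runs. Its ratio was 0.418 (0.369 to 0.474), and the runs of the labels did not overlap. TSC22D3, the glucocorticoid-induced leucine zipper protein, held 228 and 232 CPM in the control runs and 91.9 and 108 CPM in the eIF2A siRNA runs, a ratio of 0.433 (0.402 to 0.466). LDOC1, a small leucine zipper protein, held 50.2 and 52.6 CPM in the control runs and 23.5 and 21.9 CPM in the eIF2A siRNA runs, a ratio of 0.442 (0.378 to 0.515). For LDOC1 and TSC22D3 both eIF2A siRNA runs lay far below both control runs. AIG1, an enzyme that hydrolyses branched fatty acid esters, held 34.9 and 40.03 CPM in the control runs and 19.2 and 15.8 CPM in the eIF2A siRNA runs. PIGL, the deacetylase of the second step of GPI anchor synthesis, held 75.2 and 71.4 CPM in the control runs and 38.5 and 31.1 CPM in the eIF2A siRNA runs. The small subunit DPM3, which holds dolichol-phosphate mannose synthase in the ER membrane, held 74.4 and 64.9 CPM in the control runs and 32.5 and 34.7 CPM in the eIF2A siRNA runs. In each of AIG1, PIGL and DPM3 the eIF2A siRNA runs lay below both control runs. MYDGF, a growth factor kept largely in the ER, held 169 and 174 CPM in the control runs and 85.2 and 84.5 CPM in the eIF2A siRNA runs, and CD99L2, a cell surface adhesion protein, 31.03 and 29.3 CPM in the control runs and 13.5 and 16.4 CPM in the eIF2A siRNA runs. These 5 genes had log2 ratios of -1.09, -1.07, -1.05, -1.02 and -1.01. HCCS, which joins heme to cytochrome c, had a log2 ratio of -0.96, the ribosomal protein RPL14 -0.94, the sugar transporter SLC50A1 -0.90 and the lysosomal protease CTSC -0.88. Runs of the 2 labels did not overlap in any of these 12 genes. They were picked for passing the fold in both IP-labelled pairs, so this is no separate check. In set 2 all 12 were again below 1, with log2 ratios from -0.43 to -1.14.

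Among genes of at least 20 CPM the highest ratios came from genes of mostly unrelated roles, and the first 2 code for plasma proteins. Under 20 CPM other plasma protein genes had ratios as high, such as ITIH2 (3.34) and APOH (3.33), and are described below. APOB, the scaffold of low-density lipoprotein, held 38.1 and 41.1 CPM in the control runs and 141 and 126 CPM in the eIF2A siRNA runs, a ratio of 3.38 (3.03 to 3.78). ALB, serum albumin, held 20.3 and 19.6 CPM in the control runs and 62.6 and 62.6 CPM in the eIF2A siRNA runs, a ratio of 3.14 (2.69 to 3.68). In set 2 their log2 ratios were 0.50 and 0.05, against 1.76 and 1.65 in set 1. PPFIA3, a scaffold of presynaptic active zones, held 35.1 and 36.2 CPM in the control runs and 89.7 and 84.9 CPM in the eIF2A siRNA runs, a ratio of 2.45 (2.17 to 2.77). In set 2 the ratio of PPFIA3 was 1.13 (0.991 to 1.28). KLHL7, a substrate adaptor of cullin-3 ubiquitin ligases, held 16.4 and 15.1 CPM in the control runs and 37.4 and 37.7 CPM in the eIF2A siRNA runs, a ratio of 2.38 (1.98 to 2.87). Its set 2 log2 ratio, -0.42, lay on the other side of 0. TMEM25, a transmembrane protein, held 13.1 and 13.7 CPM in the control runs and 35.5 and 27.9 CPM in the eIF2A siRNA runs, and the giant muscle protein gene TTN 19.6 and 19.9 CPM in the control runs and 41.5 and 43.5 CPM in the eIF2A siRNA runs. Both TMEM25 and TTN lay higher in each eIF2A siRNA run than in each control run. ATN1, a transcriptional corepressor, held 84.2 and 88 CPM in the control runs and 167 and 172 CPM in the eIF2A siRNA runs, a ratio of 1.97 (1.82 to 2.13) beside 2.09 (1.91 to 2.28) in set 2. BRAF, a kinase of the MAPK cascade, held 18.3 and 16.6 CPM in the control runs and 36.1 and 32.5 CPM in the eIF2A siRNA runs. DMPK, a serine/threonine kinase named for myotonic dystrophy, held 19.95 and 16.97 CPM in the control runs and 32.5 and 38.9 CPM in the eIF2A siRNA runs. GTF3A, a transcription factor of RNA polymerase III, had a log2 ratio of 0.90, the chromatin remodeller CHD2 0.90 and NETO2, which modulates kainate receptors, 0.88. As with the lowest ratios, the runs of the labels did not overlap in these 12 genes, which were picked by the same rule. In set 2 their log2 ratios ran from -0.42 (KLHL7) to 1.06 (ATN1), with only KLHL7 below 0.

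**Figure D2:**
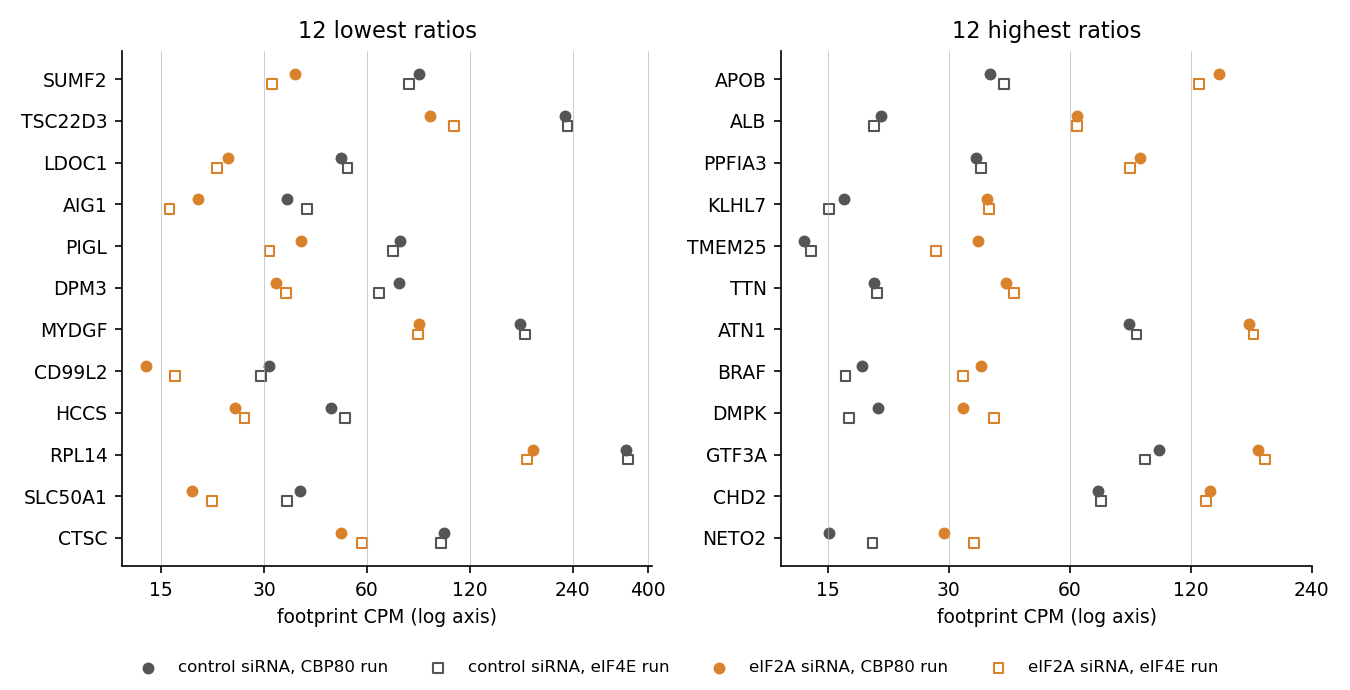
Footprint CPM (horizontal axis, log scale) in each of the 4 set 1 runs for the 12 genes with the lowest and the 12 with the highest ratios among genes of at least 20 CPM that passed the fold in both IP-labelled pairs. Grey symbols are control and coloured symbols eIF2A siRNA, with 1 symbol per run. The runs of a label lie close together and the labels stand apart, which the choice by both pairs largely fixes.

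Because APOB and ALB led the higher genes of at least 20 CPM, other genes of plasma proteins made by hepatocytes were read in the same libraries. This list of 36 genes was chosen after these values had been seen. Summed over the list and per 1000000 total coding reads, the control runs held 232 and 232 CPM and the eIF2A siRNA runs 473 and 466 CPM. APOC1, which went the other way, made up 670 of 1317 and 684 of 1322 of the control reads. Without it the control runs held 114 and 112 CPM and the eIF2A siRNA runs 395 and 381 CPM. In set 2 the whole list held 142 and 153 CPM in the control runs and 133 and 118 CPM in the eIF2A siRNA runs, so the label stood lower. Without APOC1 the set 2 sums were 19.9 and 30.7 CPM in the control runs and 40.6 and 34.8 CPM in the eIF2A siRNA runs. These are lower levels than in set 1, and the higher sum under the label in set 2 depends on leaving out APOC1. 8 of the 36 reached the read minimum. 5 of these reached it only through their reads under the eIF2A siRNA label, so their count past the fold is no support for a direction. APOB and ALB would also have reached it at their control level, as would APOC1. Of the other 5, the carrier AHSG had a ratio of 2.69 (2.01 to 3.66), APOH 3.33 (2.398 to 4.68), the inhibitor subunit ITIH2 3.34 (2.61 to 4.304), the complement protein C3 2.53 (1.98 to 3.25) and the protease inhibitor SERPINA1 2.54 (1.96 to 3.305). These 5 genes were of low level, at most 26.5 CPM in a summed library, and in set 2 their log2 ratios were 2.89, 0.99, 1.53, 0.64 and 1.01. Reads of these genes in set 2 were few, AHSG having 1 and 1 in the control runs. Counting intervals of the set 2 ratios lay above 1 for AHSG (1.78 to 65.97), ITIH2 (1.13 to 8.74) and C3 (1.04 to 2.38). They included 1 for APOH (0.649 to 7.17) and SERPINA1 (0.892 to 4.97). APOC1 stood lower, with 124 and 126 CPM in the control runs and 74.8 and 80.6 CPM in the eIF2A siRNA runs, a ratio of 0.621 (0.568 to 0.678). Below the read minimum, transferrin (TF) held 3.23 CPM in control and 9.61 CPM with the eIF2A siRNA label, apolipoprotein APOA1 2.95 CPM in control and 8.93 CPM with the eIF2A siRNA label and alpha-fetoprotein (AFP) 3.14 CPM in control and 9.32 CPM with the eIF2A siRNA label, ratios of 2.97 (2.004 to 4.51), 3.02 (2.002 to 4.67) and 2.97 (1.99 to 4.53). In set 2 the log2 ratios of TF, APOA1 and AFP were -0.86, -0.47 and 0.14, from few reads, and the counting interval of each ratio included 1. CRP, GC and TTR were at 0 in all 4 runs of set 1, which allows up to 0.264 CPM in the summed control and 0.306 CPM in the summed eIF2A siRNA library before TMM scaling. A list of 22 hepatocyte enzymes and transporters, also chosen after the values were seen, summed to 20.8 and 18.1 CPM in the control runs and 25.5 and 23.6 CPM in the eIF2A siRNA runs. ASS1, a urea cycle enzyme that many cells express, gave 72 of 118 and 60 of 103 of the control reads, with a ratio of 0.804 (0.615 to 1.05). Without it the control runs held 8.09 and 7.56 CPM and the eIF2A siRNA runs 14.2 and 14.3 CPM, and CYP2E1, a cytochrome P450, had a ratio of 2.103 (1.26 to 3.59). 8 of these 22, among them CYP3A4 and CYP7A1, were at 0 in all 4 runs. Without both lists, 280 genes stood higher and 331 lower. The part of these transcripts in other ratios was not tested. In such bulk libraries more cells of a type and more RNA per cell cannot be told apart.

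**Figure D3:**
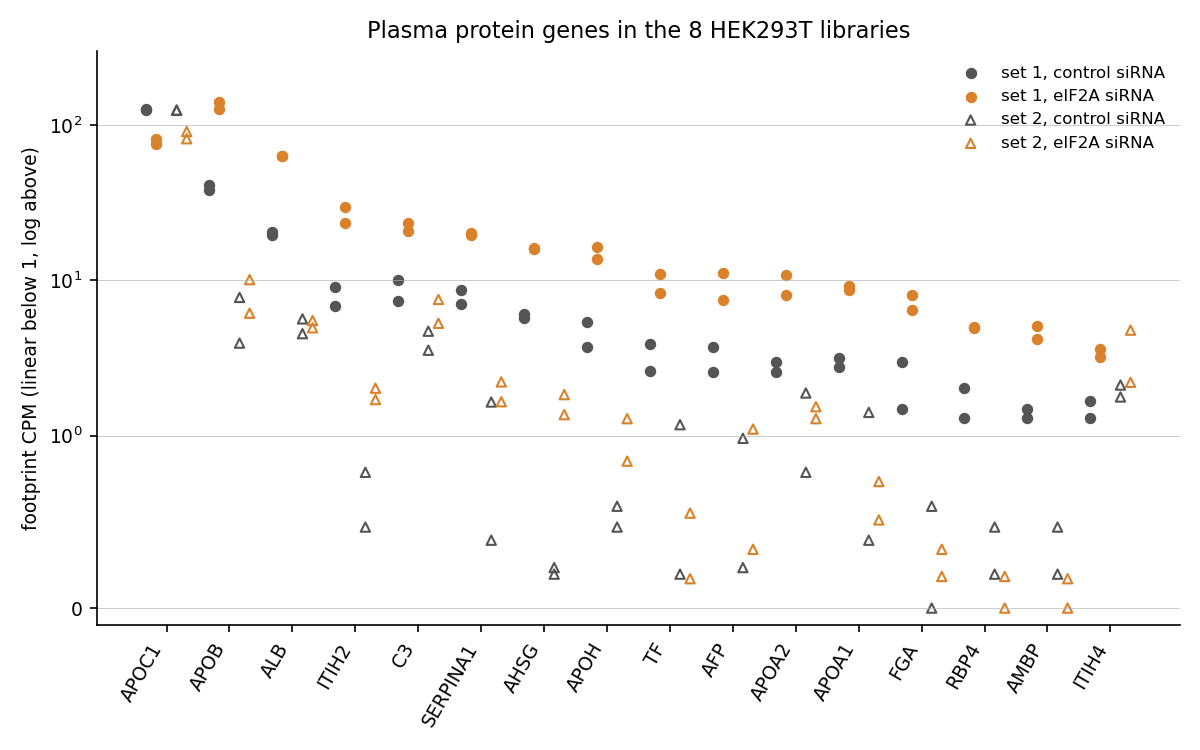
Level in CPM (vertical axis, log scale) of genes of plasma proteins in the 4 runs of set 1 and the 4 of set 2, with 1 symbol per run. Only genes with at least 50 reads over the 4 runs of set 1 are drawn. In set 1 the eIF2A siRNA symbols lie above the control symbols for most drawn genes, with APOC1 the other way. Some genes, such as AMBP and RBP4, reach the minimum only through their reads under the eIF2A siRNA label, so the choice partly fixes this direction.

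Genes of the ER protein-folding machinery stood lower as a group. Of 28 tested genes of ER chaperones and the unfolded protein response, 0 stood higher and 6 lower past the fold, against 3.83% lower among all genes, and 23 of 28 lay below the median of all genes. Their median log2 ratio was -0.42, against -0.04 for all genes, and -0.27 relative to genes of the same level. In set 2 their median was -0.39. HYOU1, a large ER chaperone of the HSP70 kind, held 1013 and 989.8 CPM in the control runs and 532 and 562 CPM in the eIF2A siRNA runs, a ratio of 0.546 (0.529 to 0.564). PDIA6 and PDIA4, which form and rearrange disulfide bonds, had ratios of 0.564 (0.549 to 0.5799) and 0.608 (0.5904 to 0.626). XBP1, a transcription factor of the unfolded protein response, held 134 and 134 CPM in the control runs and 80.3 and 80.6 CPM in the eIF2A siRNA runs, a ratio of 0.601 (0.551 to 0.655). HSPA5 (BiP), the main ER chaperone of the HSP70 kind, held 4371 and 4333 CPM in the control runs and 2883 and 2890.3 CPM in the eIF2A siRNA runs, a ratio of 0.663 (0.654 to 0.673). PPIB, a proline isomerase, had a log2 ratio of -0.65. The lectin chaperones CALR and CANX, at log2 ratios of -0.43 and -0.42, did not pass the fold. The whole list ran from -0.87 to 0.45.

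The promoters of several of these genes share the ER stress element, the sequence CCAAT, 9 bases, CCACG, to which ATF6 binds with the CCAAT factor NF-Y. It was searched on both strands, with any letters in the 9 spacer bases and no other motif considered, in the 250 bases before each gene's start, in promoters of RefSeq's GRCh38.p14 table, whose build is not that of the counts. It was in 26 of 35116 promoters (0.074%), in 13 of the 7275 tested genes with a promoter (0.179%) and in 8 of the 27 genes of the ER list with one (29.6%). The sites below belong to the 3 ER genes past the fold that hold it, to CALR and CANX within the fold, and to EIF2A. Sites of 3 other ER list genes within the fold are not shown: HSP90B1 (log2 ratio -0.35), CRELD2 (-0.13) and ERO1B (0.004). Capitals mark the fixed bases of the motif, and 10 bases stand on either side.
HSPA5, chr9:125241381-125241419, - strand: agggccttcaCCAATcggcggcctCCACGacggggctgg
PDIA6, chr2:10812843-10812881, - strand: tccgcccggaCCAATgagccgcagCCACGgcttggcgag
XBP1, chr22:28800593-28800631, - strand: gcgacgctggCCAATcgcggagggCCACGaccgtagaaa
CALR, chr19:12938374-12938412, - strand: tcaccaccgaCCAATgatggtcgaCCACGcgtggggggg
CANX, chr5:179698768-179698806, + strand: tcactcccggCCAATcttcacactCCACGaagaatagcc
EIF2A, chr3:150546700-150546738, + strand: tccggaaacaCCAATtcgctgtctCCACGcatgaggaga
The site of EIF2A lies in a stretch shared with the promoter of its divergent neighbour SERP1, which codes for a protein of the ER translocon. 8 of the 13 tested genes with the motif belong to the ER list, so their values are those already described for it. Of the 13, 11 had a log2 ratio below 0, where the median of all genes, -0.04, also lies. The 13 had a median of -0.38 and values from -0.83 to 0.06. In set 2 their median was -0.32. EIF2A had the highest of these set 1 values (0.06), while SERP1, with the same site, had -0.38. In all, 3 of the 282 lower genes with a promoter (1.06%), 10 of 6760 genes within the fold (0.148%) and 0 of 233 higher genes held the motif. The 3 lower genes were HSPA5, PDIA6 and XBP1, all of the ER list. They are 3 of the 6 ER list genes lower past the fold, and HYOU1, PDIA4 and PPIB did not hold the motif. HSPA5 passed the fold narrowly, and not in the eIF4E-labelled pair alone (ratio 0.674). A match describes the letters only and does not show binding.

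Genes that bring proteins into the ER and attach sugars there also leaned lower. Over all genes 3.83% stood lower and 3.31% higher. Of 22 tested genes of the signal recognition particle and translocon, 0 stood higher and 3 lower, and their median log2 ratio was -0.33 (-0.09 in set 2). SRPRB, the membrane anchor subunit of the receptor of the signal recognition particle, held 173 and 177 CPM in the control runs and 91.2 and 99.3 CPM in the eIF2A siRNA runs, a ratio of 0.545 (0.504 to 0.589). SEC11A, a catalytic subunit of signal peptidase, had a log2 ratio of -0.69, and SEC61A1, the channel itself, -0.65. Of 20 genes that build sugars on dolichol, the lipid carrier of N-glycans, 0 stood higher and 4 lower, with a median of -0.28. Beside DPM3 they included DPAGT1, the first enzyme of that synthesis (-0.87), and DPM2 (-0.73). PIGL and PIGP (-0.62) were the 2 lower of 16 tested GPI anchor genes, of which 0 stood higher. Of 12 oligosaccharyltransferase genes, only the catalytic subunit STT3A (-0.65) passed the fold, and 0 stood higher. Lysosomal enzymes, which are made in the ER, had the largest share of lower genes of these lists. 7 of 24 stood lower and 0 higher, with a median of -0.27 (-0.31 in set 2). CTSC held 101 and 98.9 CPM in the control runs and 50.4 and 57.97 CPM in the eIF2A siRNA runs. LIPA, the acid lipase, had a ratio of 0.582 (0.531 to 0.637) and GLA, alpha-galactosidase, one of 0.589 (0.567 to 0.611). SGSH and the cathepsins CTSL and CTSD had log2 ratios of -0.75, -0.74 and -0.69. Genes named TMEM, a loose class of membrane proteins, counted 13 lower and 2 higher of 87, led by TMEM101 (-1.02) and TMEM141 (-0.86) on the lower side. Solute carriers counted 9 lower and 1 higher of 131, among them SLC39A3, a zinc importer (-0.88). The proton pump and coat genes did not pass the fold: 0 of 17 V-ATPase subunits (median -0.24) and 0 of 20 COPI and COPII genes (median -0.18).

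Sterol synthesis had a list median as low as that of the ER genes. The counts past the fold stand beside 3.83% lower and 3.31% higher among all genes. Of 27 tested genes of cholesterol synthesis and SREBP targets, the genes that the sterol-sensing factor SREBP turns on, 5 stood lower and 0 higher. Their median log2 ratio was -0.43, or -0.32 relative to genes of the same level, and 24 of 27 lay below the median of all genes. CYP51A1, the lanosterol demethylase, held 36.2 and 32.1 CPM in the control runs and 21.1 and 19.9 CPM in the eIF2A siRNA runs, a ratio of 0.5996 (0.504 to 0.712). SQLE, squalene epoxidase, held 76.5 and 70.5 CPM in the control runs and 45.1 and 46.9 CPM in the eIF2A siRNA runs, a ratio of 0.626 (0.558 to 0.702). IDI1, an isomerase of the early pathway, had a log2 ratio of -0.71, the ER retention factor INSIG1 -0.66 and DHCR7, which makes cholesterol in the last step, -0.62. In set 2 the list median was -0.27, and INSIG1 and DHCR7 had log2 ratios of -0.76 and -0.80. Targets of the integrated stress response, the programme that ATF4 drives, counted 4 lower and 0 higher of 26, with a median of -0.30, or -0.12 relative to genes of the same level. ATF4 held 671 and 686 CPM in the control runs and 477 and 470.4 CPM in the eIF2A siRNA runs, a ratio of 0.698 (0.673 to 0.724), and did not pass the fold. ATF3, a transcription factor that ATF4 induces, held 88.9 and 82.3 CPM in the control runs and 44.7 and 52.4 CPM in the eIF2A siRNA runs, a ratio of 0.566 (0.507 to 0.632). SHMT2, a mitochondrial serine enzyme, had a log2 ratio of -0.70, the cystine importer SLC7A11 -0.67 and the secreted glycoprotein STC2 -0.59. Oxidative and metal stress genes, a set that arsenite itself can act on, were split, with 2 higher and 2 lower of 18. FTL, ferritin light chain, held 17.9 CPM in control and 29.1 CPM with the eIF2A siRNA label and GCLC, the first enzyme of glutathione synthesis, 37.9 CPM in control and 57.5 CPM with the eIF2A siRNA label. On the lower side MT2A, a metallothionein, held 19.8 CPM in control and 12.9 CPM with the eIF2A siRNA label, next to SLC7A11. FTL has near-identical pseudogene copies, so its count is uncertain.

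Nuclear genes of the mitochondrion shifted lower by a modest amount. The counts past the fold stand beside 3.83% lower and 3.31% higher among all genes, and those of the TCA cycle and glycolysis rest on 2 genes and 1 gene. Of 74 subunits of oxidative phosphorylation, 8 stood lower and 0 higher, with a median log2 ratio of -0.30 (-0.26 in set 2), and 63 of 74 lay below the median of all genes. NDUFA5, of complex I, held 13.1 and 11.8 CPM in the control runs and 6.77 and 8.22 CPM in the eIF2A siRNA runs, a ratio of 0.5997 (0.447 to 0.799). NDUFA2, also of complex I, and ATP5MC2, a membrane ring subunit of ATP synthase, had log2 ratios of -0.68 and -0.68. Of 40 genes of mitochondrial import and of the MICOS complex that shapes the inner membrane, 7 stood lower and 0 higher (median -0.26). These included CHCHD10 (-0.78), MICOS13 (-0.76), CHCHD2 (-0.67) and TIMM8A (-0.66). Mitochondrial ribosomal proteins counted 5 lower and 1 higher of 76, with a median of -0.25. MRPL52 (-0.86) and MRPS18A (-0.85) were the lowest, and MRPL4 (0.60) the higher one. In the TCA cycle PDHB, a subunit of pyruvate dehydrogenase (-0.71), and SUCLG2, of succinyl-CoA ligase (-0.59), were the 2 lower of 21 genes, with 0 higher. SUCLG2 had a log2 ratio of -0.03 in set 2. Glycolysis counted 1 lower and 0 higher of 15, the isomerase TPI1 (-0.59).

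Histone and translation genes showed lower medians that narrowed when genes of the same level were the yardstick. Of 43 tested replication-dependent histone genes, which supply chromatin in S phase, 4 stood lower and 0 higher, with a median of -0.33 (-0.15 relative to genes of the same level, -0.40 in set 2). H4C3 held 1671 and 1695 CPM in the control runs and 954 and 942 CPM in the eIF2A siRNA runs, a ratio of 0.563 (0.5497 to 0.577), and H2AC21, H2AC6 and H2BC18 had log2 ratios of -0.66, -0.61 and -0.61. Histone genes are near-identical copies of each other, so their single counts are uncertain. Cytosolic ribosomal proteins counted 3 lower and 0 higher of 65, a share near the 3.83% of all genes (median -0.22, -0.05 at the same level). RPL14 held 344 and 349.6 CPM in the control runs and 184 and 177 CPM in the eIF2A siRNA runs, a ratio of 0.5205 (0.492 to 0.5504). RPL36AL had a log2 ratio of -0.79. The eIF3 complex, the platform of initiation, had a median of -0.29 with 0 of 12 past the fold, and -0.05 at the same level. Its set 2 median was -0.08. Of the 20 factors that handle initiator tRNA, eIF2 and eIF2B, EIF2A among them, 0 passed the fold (median -0.12). Likewise 0 of 20 cap-binding and eIF4 factors (median -0.05) and 0 of 14 elongation, termination and recycling factors passed it (median -0.18, 0.00 at the same level). The proteasome had 0 of 33 past the fold with a median of -0.27 (-0.10 at the same level, -0.08 in set 2). In the TRiC chaperonin 1 of 8 stood lower, CCT8 (-0.59), and among 17 heat shock proteins 1, the HSP90 cochaperone AHSA1 (-0.60), while 0 stood higher in either list.

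The lists that leaned higher included those of chromatin and ubiquitin enzymes. Of 35 tested CHD and SWI/SNF remodellers, which move nucleosomes, 4 stood higher and 0 lower, against 3.31% higher among all genes. Their median log2 ratio was 0.23, with 0.20 in set 2. CHD2 held 70.4 and 71.8 CPM in the control runs and 134 and 131 CPM in the eIF2A siRNA runs, a ratio of 1.86 (1.705 to 2.04). CHD1, SMARCD3 and BRD7 had log2 ratios of 0.63, 0.64 and 0.59. Histone lysine methyltransferases and demethylases counted 4 higher and 0 lower of 43 (median 0.10). KMT2C, which methylates histone H3 at enhancers, held 129 and 115 CPM in the control runs and 211 and 216 CPM in the eIF2A siRNA runs, a ratio of 1.75 (1.64 to 1.88). KDM6B, a demethylase, had a log2 ratio of 0.78, and the methyltransferases SETD2 and NSD3 had 0.64 and 0.63. In the HECT family of ubiquitin ligases 3 of 22 stood higher and 0 lower. Its median of 0.26 (0.31 in set 2) was the highest of the 52 lists, and 21 of 22 members lay above the median of all genes. AREL1 held 13.7 and 13.7 CPM in the control runs and 22.4 and 24.3 CPM in the eIF2A siRNA runs, a ratio of 1.705 (1.38 to 2.11), followed by WWP1 (0.67) and SMURF2 (0.59). Ubiquitin-specific proteases, which take ubiquitin off, counted 3 higher and 0 lower of 37 with a median of 0.21. These were USP24 (0.63), USP25 (0.63) and USP31 (0.62). The nonsense-mediated decay pathway, which removes mRNAs with early stop codons, counted 2 higher and 0 lower of 17, with a list median of 0.08. The kinase SMG1, which starts that pathway, held 112 and 118 CPM in the control runs and 184 and 187 CPM in the eIF2A siRNA runs, a ratio of 1.62 (1.503 to 1.74). SMG1 and KMT2C have near-identical partial copies elsewhere in the genome, so their counts are uncertain. Of 33 DNA damage and repair genes 3 stood higher, namely REV3L (0.83), NBN (0.66) and POLQ (0.59), and ERCC2 (-0.60) stood lower (median 0.09).

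Signalling and cell surface genes gave mixed pictures, beside 3.31% higher and 3.83% lower among all genes. Of 13 tested genes of FGF and IGF signalling, 2 stood higher and 1 lower, with a median of 0.26. IRS2, an adaptor of insulin and IGF receptors, held 8.31 and 8.12 CPM in the control runs and 11.7 and 16.7 CPM in the eIF2A siRNA runs, a ratio of 1.71 (1.31 to 2.26), but a log2 ratio of -0.13 in set 2. FRS2, the adaptor of FGF receptors, held 13.1 and 13.1 CPM in the control runs and 23.9 and 20.1 CPM in the eIF2A siRNA runs, a ratio of 1.68 (1.36 to 2.09). IGFBP5, a secreted IGF-binding protein, stood lower and held 89.8 and 91.3 CPM in the control runs and 46.8 and 53.2 CPM in the eIF2A siRNA runs, a ratio of 0.551 (0.494 to 0.614). Collagens, laminins and integrins counted 3 higher and 2 lower of 34. The integrin ITGB5 (0.83), EMILIN2 (0.79) and fibronectin, FN1 (0.73), were higher, and the collagens COL4A6 (-0.70) and COL14A1 (-0.66) lower. Among immediate early genes 2 of 19 stood lower, ATF3 and KLF6 (-0.66), and 1 higher, FOSL2 (0.61). p53 targets had 1 lower of 17, FDXR (-0.63), and 0 higher. DNA replication genes had 1 on each side of 48, CCNE1, cyclin E (0.80), higher and the helicase factor CDC45 (-0.68) lower. Of 34 mitosis genes 0 passed the fold, and of 242 tested ZNF zinc finger genes 2 stood higher and 4 lower, shares below those of all genes. In the SR and hnRNP list HNRNPH2 (-0.75) and HNRNPH1 (-0.68), close paralogs that can share reads, were the 2 lower of 36, and 0 stood higher. Of the TSC22 family and glucocorticoid targets, TSC22D3 was the only one of 8 past the fold.

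**Figure D4:**
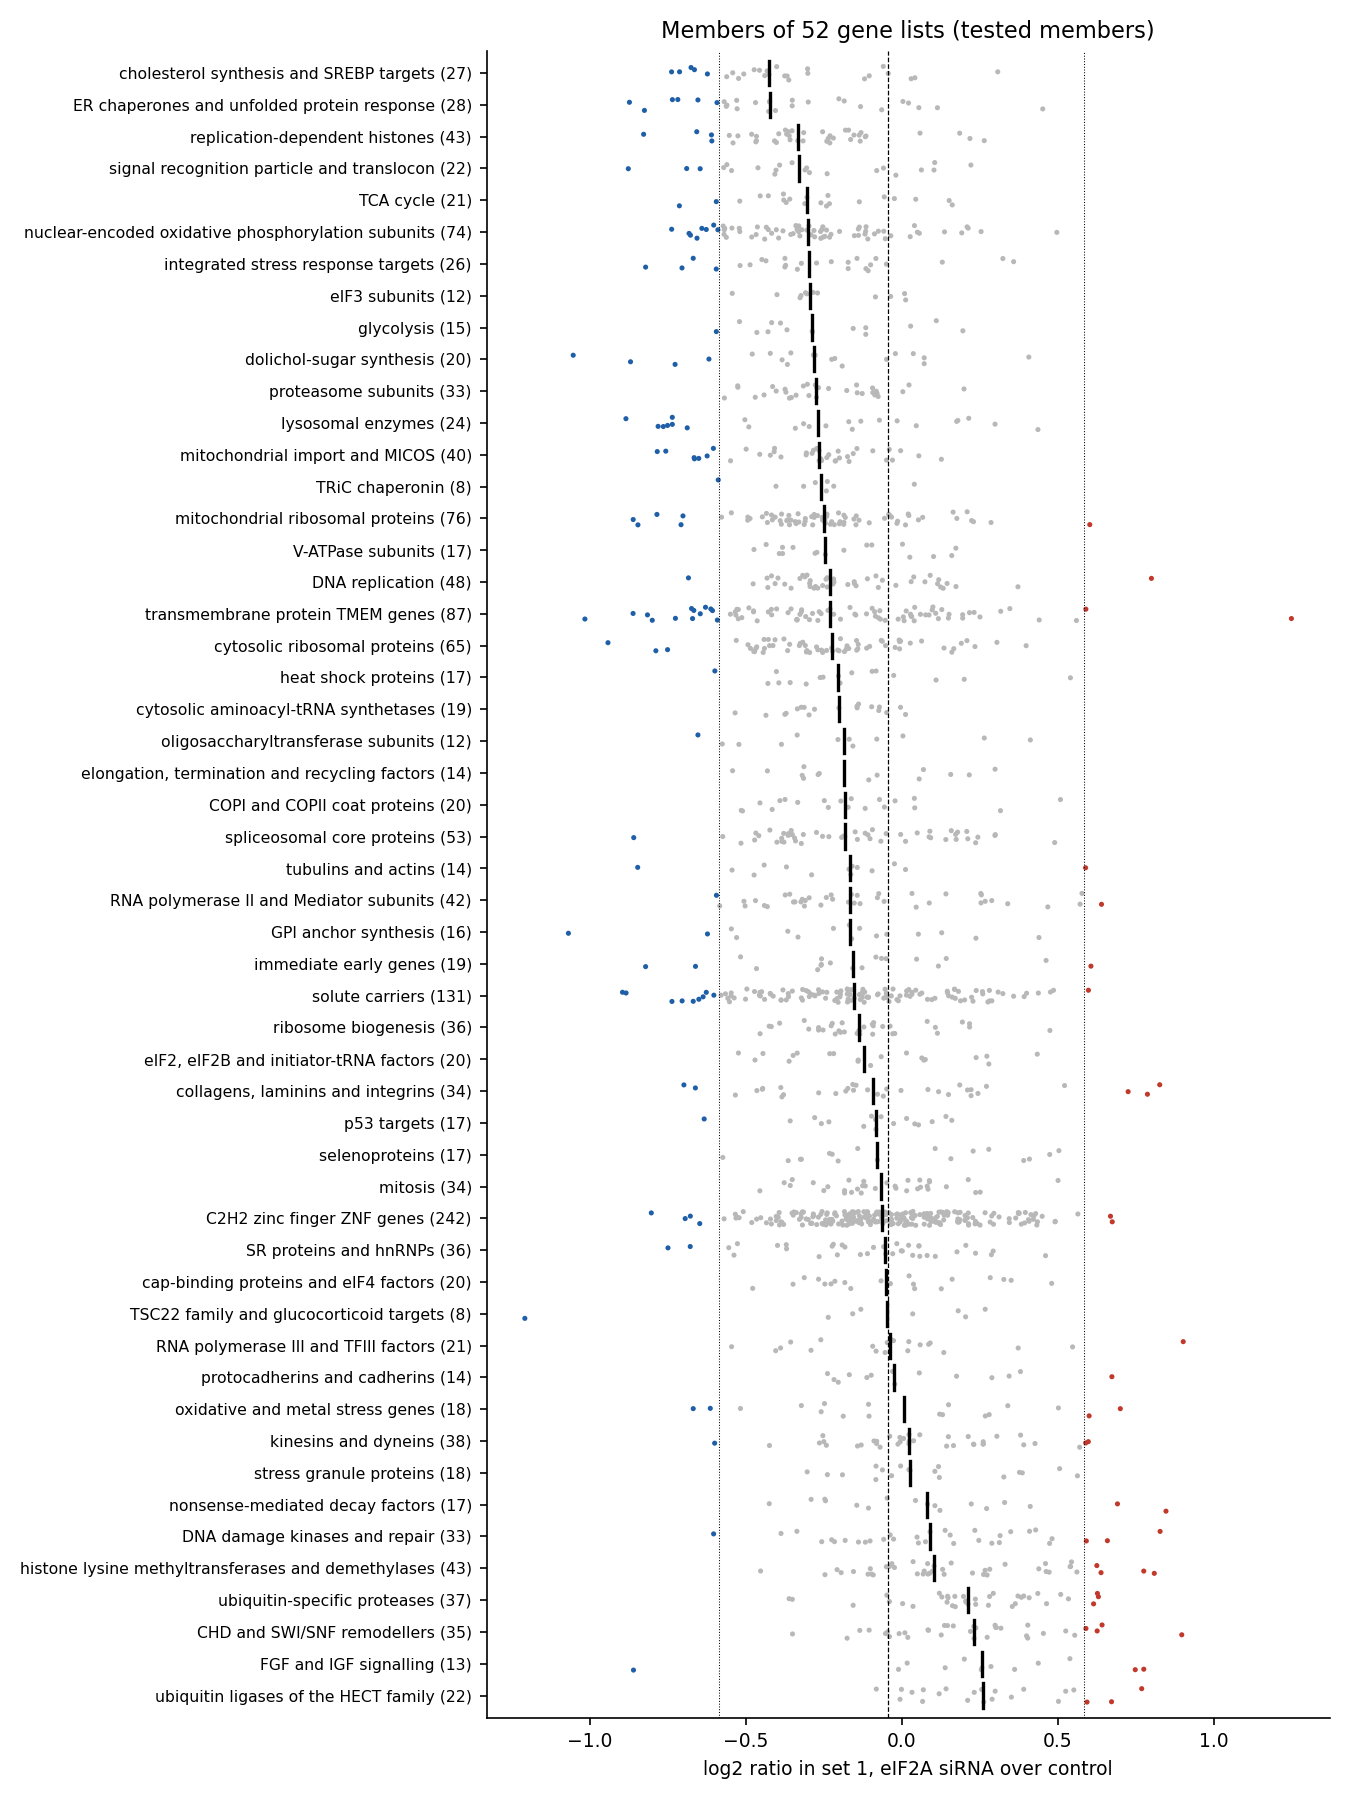
Log2 ratio of eIF2A siRNA over control in set 1 (horizontal axis) for the tested members of gene lists, 1 point per gene, with the median of each list as a bar. The line marks the median of all 8675 genes, -0.04. Cholesterol synthesis and ER chaperones lie farthest left (medians -0.43 and -0.42) and HECT ligases farthest right (0.26).

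Set 2 shares no library with set 1, and it gave most of set 1's genes past the fold a ratio on the same side. Of the 287 genes higher in set 1, 275 (95.8%) had a ratio above 1 in set 2, against 51.1% of all 8675 genes, and 133 (46.3%) passed the fold there, against 3.76%. Those 133 were 40.8% of the 326 genes that passed the fold upward in set 2. Of the 332 lower genes, 328 (98.8%) had a ratio below 1 in set 2, against 48.9%, and 115 (34.6%) passed the fold, against 3.3%. They were 40.2% of set 2's 286 lower genes. Over its own 8469 genes with enough reads, set 2 had 6.71% past the fold either way. In each direction 0 of set 1's genes past the fold passed it the opposite way in set 2. The median log2 ratio of the higher genes was 0.68 in set 1 and 0.56 in set 2, and that of the lower genes -0.67 and -0.49. EIF2A itself differed by 0.95 between the sets (log2 ratio 0.06 in set 1 and -0.89 in set 2). Among genes of at least 20 CPM, 4 past the fold in set 1 were on the other side of 1 in set 2. KLHL7 held 20.7 and 20.9 CPM in the control runs and 15.4 and 15.7 CPM in the eIF2A siRNA runs of set 2, a ratio of 0.748 (0.607 to 0.922). FN1, a matrix glycoprotein that is also a plasma protein, held 56.3 and 56.6 CPM in the control runs and 95.9 and 90.9 CPM in the eIF2A siRNA runs in set 1, a ratio of 1.65 (1.49 to 1.83), and had 0.932 (0.805 to 1.08) in set 2. ZBTB8OS, an archease that assists tRNA ligation, held 81.7 and 76.9 CPM in the control runs and 44.9 and 52.96 CPM in the eIF2A siRNA runs in set 1, a ratio of 0.616 (0.5504 to 0.688), and had 1.11 (1 to 1.24) in set 2. DPCD held 162 and 167 CPM in the control runs and 104 and 109.7 CPM in the eIF2A siRNA runs in set 1, a ratio of 0.649 (0.602 to 0.701), and had 1.096 (1.02 to 1.18) in set 2. DPCD was higher in both runs of set 2 and ZBTB8OS overlapped there, and whether the sets differ was not tested.

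**Figure D5:**
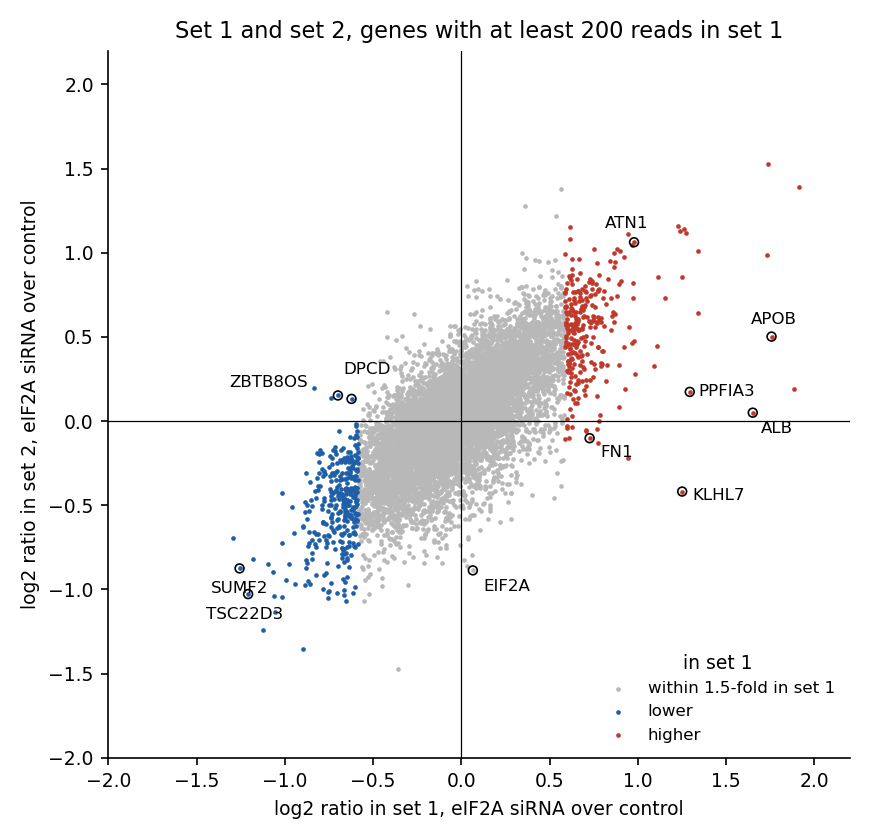
Log2 ratio of eIF2A siRNA over control in set 2 (vertical axis) against that in set 1 (horizontal axis), 1 point per gene with at least 200 reads in set 1. 1 gene lies outside the axes. Most of the genes higher (red) or lower (blue) in set 1 lie on the same side in set 2, whereas EIF2A lies at 0.06 in set 1 and -0.89 in set 2.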

How the data were processed

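Ribosome footprints were sequenced in 12 libraries, of which the 4 HEK293T libraries of set 1 are analysed here beside the 4 of set 2. Each deposited table lists raw read counts, as whole numbers, for 1 RefSeq transcript's coding sequence per line. Reads were processed with STAR 2.5.2b and cutadapt on build hg19, per the submitters' processing notes. The sources used here give no counter, strand setting or annotation, so reads of genes overlapping on opposite strands cannot be told apart. Summary entries that name no gene, mostly reads with several alignments, held 88.1 to 89.4% of the set 1 counts and were left out. Genes with near-identical copies are therefore undercounted. Of 19305 accessions, 18888 were named through RefSeq's GRCh38.p14 table and 417 kept their accession. 7 symbols had 2 accessions. Promoter sequences come from RefSeq's GRCh38.p14 table.

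Groups and sets came from the sample titles. The 2 runs of each siRNA label were summed after a chi-square comparison. Libraries were scaled by TMM in edgeR 4.0.16 (R 4.3.3), and ratios with Clopper-Pearson intervals were computed in Python 3.11.15 with scipy 1.17.1 for genes with at least 200 reads. In set 1 runs, 3 counts stand for 0.527 to 0.632 CPM of total reads. The code was tested on simulated data. The members, the 52 gene lists and the rule for named genes were chosen with earlier results of these data known. The rule names EIF2A, the 12 largest differences each way among genes past the fold in both pairs with at least 20 CPM, and up to 4 genes past the fold per list, some of which are not reported here. It adds up to 6 genes each way on the other side of 1 in set 2, and NCBP1, NCBP2, EIF4E, ATF4, HSPA5 and SRC. TUSC3, CALR, CANX, HSP90B1, CRELD2, ERO1B, SERP1, the markers and the plasma protein genes stand outside this rule. TUSC3 and the plasma protein genes were chosen after their values were seen. Alternatives were other scalings (total reads, DESeq2 1.42.0 size factors, TMM without the 20 most abundant genes, median centring), single runs or pairs, other read minimums and other folds. Medians by protein length class were planned and not run, since no protein table was used here.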

Additional observations from a re-analysis of the deposited data

Results flagged for a closer look

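For EIF2A, DPCD, FN1 and KLHL7, both eIF2A siRNA runs lay on one side of both control runs in set 1 and on the other side in set 2. The log2 ratio in set 1 minus that in set 2 was 0.951 for EIF2A, -0.755 for DPCD, 0.828 for FN1 and 1.67 for KLHL7. The difference between the sets was not tested, since each set holds 1 distinguishable library per siRNA label. KLHL7 had 2.38 (1.98 to 2.87) in set 1 and 0.748 (0.607 to 0.922) in set 2, so its counting intervals lie on opposite sides of 1.

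The reads outside annotated coding sequences, which no comparison of genes uses, made up 51.1% of the reads placed once in the set 1 library labelled eIF2A siRNA. The control of that set had 39.98%, and in set 2 the shares were 42.3% with the eIF2A siRNA label and 35.2% in control.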

How the results depend on the processing

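Total-read scaling gave 689 genes higher and 112 lower, an EIF2A ratio of 1.15, and 45.5% of the lower genes past the fold in set 2. Centring on the median gave 38.4 and 40.9% of the higher and lower genes past the fold in set 2, from 396 and 247 genes. Over the leave-one-out settings 300 to 400 genes stood higher and 291 to 395 lower, and the EIF2A ratio was 1.02 to 1.07. There, 38 to 42.7% of the higher and 30.6 to 35.4% of the lower genes passed the fold in set 2, and 93.3 to 95% and 97.3 to 98.4% lay on the same side. The CBP80-labelled pair alone gave 37.9% of the higher genes past the fold in set 2 and 96.6% of the lower genes on the same side. The eIF4E-labelled pair alone gave 431 genes higher, with 34.8% past the fold and 91.9% on the same side in set 2. With at least 50 reads, 594 and 512 genes stood higher and lower, and 85.9 and 92.6% lay on the same side in set 2. With at least 1000 reads these were 66 and 156 genes, and 54.5% of the higher genes passed the fold and 98.5% lay on the same side. With no minimum they were 1904 and 1188 genes, with 69 and 72.4% on the same side. A fold of 2 left 20 and 12 genes, with 40 and 41.7% past it in set 2 and 100% of the lower on the same side. The smaller fold tried gave 1262 and 1632 genes, with 65.1 and 48.8% past it and 91.9% of the lower on the same side. The whole interval past 1.5 left 47 and 80 genes, with 72.3 and 50% past the fold and 100% of the lower on the same side. Apart from the settings built with fewer genes or other folds, the cause was not tested. RLE scaling gave 244 higher and 381 lower genes.

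The 151 named genes include at least 24 that were not past the fold in the main setting. Of those past it, 12 to 19 no longer were when 1 run was left out, and 40 with total-read scaling. Of 52 list medians, 2 to 4 changed side of the all-gene median when 1 run was left out, 4 in the CBP80-labelled pair alone, 2 in the eIF4E-labelled pair alone, 3 with at least 50 reads, 7 with at least 1000 and 4 with no minimum. Scaling cannot move them, since it shifts all genes alike. 6 changed side relative to genes of the same level, a comparison chosen after the data were seen, as were the count without hepatocyte genes and the sums without APOC1 or ASS1. No paired analysis was possible because set 1 holds 1 distinguishable library per siRNA label and no test was run. Medians by protein length class, and list medians relative to them, were not run. With 200 reads a ratio near the fold is known only to within its counting interval, so genes of low level are the least certain.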

Other observations

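The remaining lists held few or no genes past the fold, beside 3.31% higher and 3.83% lower among all genes. RNA-binding proteins of stress granules, the RNA assemblies that form under arsenite, counted 0 higher and 0 lower of 18 (median 0.03, 0.14 in set 2). Cytosolic aminoacyl-tRNA synthetases, which charge tRNAs, counted 0 higher and 0 lower of 19 (median -0.20, -0.05 in set 2), and ribosome biogenesis factors 0 higher and 0 lower of 36 (median -0.14, -0.06 in set 2). Relative to genes of the same level these 2 medians were -0.07 and 0.05, the second on the other side of 0. Selenoproteins, whose synthesis needs a recoded stop codon, counted 0 higher and 0 lower of 17 (median -0.08, -0.12 in set 2). Core spliceosomal proteins counted 0 higher and 1 lower of 53 (median -0.18, -0.01 in set 2), with SNRPG (-0.86) the lower one, and their median was -0.05 relative to genes of the same level. RNA polymerase II and Mediator genes counted 1 higher and 1 lower of 42 (median -0.17, 0.01 in set 2), namely MED12L (0.64) and POLR2I (-0.59). In the RNA polymerase III list GTF3A stood alone, with 1 higher and 0 lower of 21 (median -0.04, 0.00 in set 2).

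Motor and cytoskeleton genes were mixed. Kinesins and dyneins counted 2 higher and 1 lower of 38 (median 0.02, 0.13 in set 2), with KIF13A (0.60) and KIF5B (0.59), a motor of vesicle transport, on the higher side and KIF9 (-0.60) on the lower. Tubulins and actins counted 1 higher and 1 lower of 14 (median -0.17, -0.18 in set 2). TUBA1B, an alpha-tubulin with close paralogs that can share reads, held 781 and 777 CPM in the control runs and 434 and 433 CPM in the eIF2A siRNA runs, and TUBG2 had a log2 ratio of 0.59. Protocadherins and cadherins counted 1 higher and 0 lower of 14 (median -0.03, 0.01 in set 2), the higher gene being CELSR3 (0.67), a cadherin of planar polarity.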
